A study of Mus musculus with 4 samples.

Results

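FB Wapal is Wapal carrying a Flag and biotin-acceptor tag, expressed in mouse embryonic stem cells (ESCs) that also express the bacterial biotin ligase BirA, and bioChIP-seq recovers the DNA cross-linked to the biotinylated protein on streptavidin beads. The series holds 2 FB Wapal libraries, each from an independently derived clone, 1 library from control ESCs that express BirA without tagged Wapal, and 1 input library of sheared genomic DNA. All the cells were grown in standard ESC conditions, the tagged protein came from an introduced cDNA beside the cell's own Wapal, and each clone is a single isolate. The regions of both clones were given as 1 joined list, so no value here has a spread between clones and no test between samples was possible.

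The joined list held 8497 regions, of which 174 shared at least 1 base with a region of the BirA list and were set aside, leaving 8323 Wapal sites. Described here are the sites in introns of shorter genes. The centre of such a site lies over 2 kb from every annotated transcription start site (TSS), in no exon of any transcript, and inside a gene body, and the longest gene holding it spans under 100 kb. There were 1177 such sites, 14.1% of all sites (95% Wilson interval 13.4 to 14.9) and 42.4% of the 2774 intronic sites. A further 18 regions met the same rule but shared bases with a BirA region and were left out. Other sites lay in introns of genes of 100 kb or more (1597), in promoters (824), in exons (220), or outside genes at 2 to 20 kb (2128), 20 to 100 kb (1851) and over 100 kb (526) from a TSS. Regions are not replicates of one another, so the intervals given cover counting error only, and no p-value was computed over them.

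Cohesin is a ring-shaped complex that encircles DNA, holds sister chromatids together and extrudes chromatin loops. Wapal opens the ring and releases cohesin from chromatin, and CTCF, a zinc-finger protein with an oriented DNA motif, marks many of the places where moving cohesin halts. Introns hold many such places as well as enhancers, and a loop anchor inside a gene lies in the path of RNA polymerase II.

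Most of these sites held the core of the CTCF motif. Of the 1177 intronic sites, 913 held the core with at most 1 mismatch on either strand, or 77.6% (75.1 to 79.9). The windows of the 10 highest-scoring sites that hold it are printed first because they show the shared core in unrelated flanks. Each is read 5′ to 3′ on the strand of the motif, from the mm9 reference, with the core in capitals.
Alg14, chr3:121010670-121010711, plus strand: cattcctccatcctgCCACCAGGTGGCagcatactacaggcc
Gm16271, chr10:86487762-86487803, plus strand: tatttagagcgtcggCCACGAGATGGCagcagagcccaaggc
Ikbkg, chrX:71658854-71658895, minus strand: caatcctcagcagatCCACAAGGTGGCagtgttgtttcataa
Shc4, chr2:125485889-125485930, plus strand: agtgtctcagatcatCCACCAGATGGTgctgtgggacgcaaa
4933407H18Rik, chr5:33736641-33736682, plus strand: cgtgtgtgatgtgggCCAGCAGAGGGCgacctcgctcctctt
AI481877, chr4:59109407-59109448, plus strand: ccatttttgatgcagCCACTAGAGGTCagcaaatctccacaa
Rnf213, chr11:119266125-119266166, minus strand: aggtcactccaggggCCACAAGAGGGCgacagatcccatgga
Txnrd2, chr16:18443739-18443780, plus strand: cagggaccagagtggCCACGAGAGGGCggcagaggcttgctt
Piwil4, chr9:14503607-14503648, minus strand: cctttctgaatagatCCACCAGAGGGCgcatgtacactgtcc
Opn5, chr17:42740537-42740578, minus strand: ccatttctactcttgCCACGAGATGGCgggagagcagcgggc

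The Eaf2 site had the second-highest score of the 1177 intronic sites described here and no core within 1 mismatch. It held 4 matches with 2 mismatches, and the one nearest the site's centre, 1 bp away, is shown in capitals for comparison.
Eaf2, chr16:36817640-36817681, minus strand: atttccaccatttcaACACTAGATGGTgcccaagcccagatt

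The strongest of these intronic sites, in Alg14, is also given as the 300 bases about its centre, with the core in capitals. The core sits 19.5 bp from the centre of the 925 bp region.
Alg14, chr3:121010522-121010821, plus strand: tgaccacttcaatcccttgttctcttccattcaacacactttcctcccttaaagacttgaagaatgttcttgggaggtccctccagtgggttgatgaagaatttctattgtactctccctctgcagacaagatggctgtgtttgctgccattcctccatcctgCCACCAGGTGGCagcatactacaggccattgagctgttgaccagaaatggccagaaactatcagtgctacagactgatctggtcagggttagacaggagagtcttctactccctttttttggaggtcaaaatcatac

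Over the 913 windows, the bases shared by more than 50% of sites, written in capitals inside the core and in lower case outside it, formed the following consensus, with n for a position where no base reached that share.
Consensus of 913 windows: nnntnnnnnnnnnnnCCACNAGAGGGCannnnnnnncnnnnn
Counting from 1 at the 5′ end of the core, C at position 2 was present in 99.8% of windows, G at position 10 in 99.8% and G at position 7 in 99.01%. The windows were picked for holding the core with at most 1 mismatch. High shares inside the core, and most of the consensus there, were therefore largely set by the search. Position 5 held 214 of the 577 single mismatches (37.1%), position 12 held 97, position 1 held 95 and position 11 held 63. These counts do not rank the positions by looseness, because the search accepted more than 1 base at positions 4, 5, 8 and 9. Positions 4, 8 and 9 held 4, 0 and 11 mismatches. Their commonest base reached only 60.7%, 56.6% and 52.35% of windows, against 89.4%, 89.6% and 93.1% at positions 12, 1 and 11. At position 5, where the search accepted C or T, the commonest base reached 40.3%. That was the lowest share in the core, at the position with most mismatches, and accepting C or T itself lowers it. Outside the core, only T at position −11 (52.3%, with position 0 directly before the core), A directly after it (57.9%) and C at position 22 (53.8%) passed 50%.

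An exact core was found in 336 sites (28.6%), a single mismatch was the best match in 577, 2 mismatches in 228 and 3 in 36. Regions of the same width placed 5 kb to either side held the core with at most 1 mismatch in 243 of 2328 cases, 10.4% (9.26 to 11.7), and the exact core in 12 cases (0.516%). The difference in the share with at most 1 mismatch was 67.1 percentage points (64.3 to 69.7). A match is a description of the letters and does not show that CTCF was bound. With 2 mismatches allowed, 96.9% of sites and 51.9% of flanks held a match, so at that setting the search separated them far less.

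The core lay close to the middle of the region. Its median distance from the centre was 41 bp (interquartile range 17 to 87.5). It fell within 50 bp of the centre in 57.5% of the 913 sites, within 100 bp in 79.1% and within 200 bp in 91.6%. The 76 sites with several equally good matches were placed by the match nearest the centre, which draws those distances inward.

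**Figure D1:**
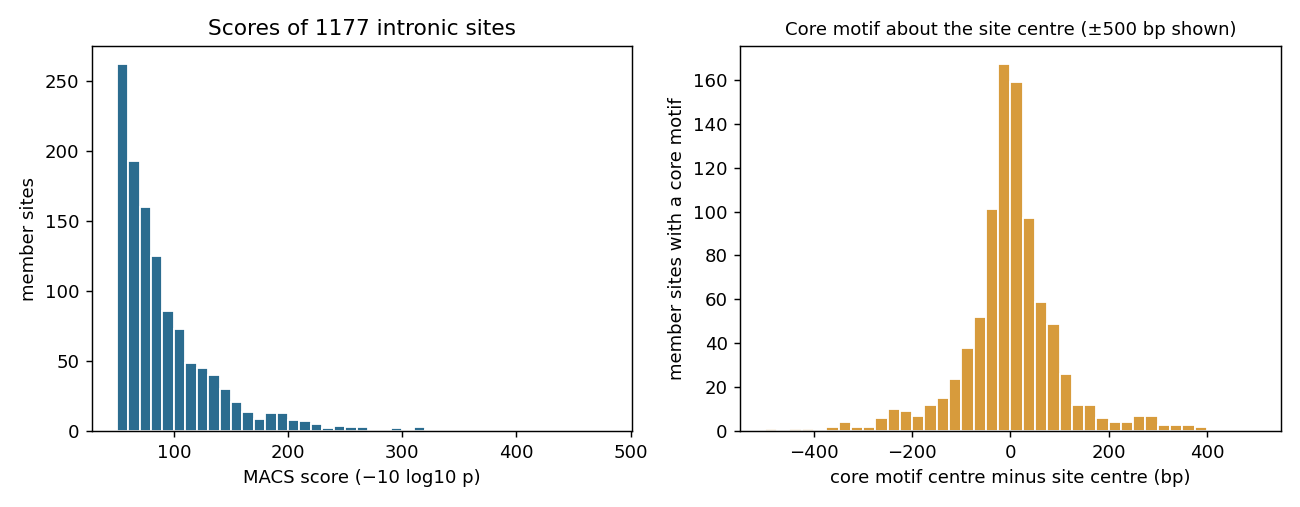
Left, number of intronic sites by MACS score in steps of 10; right, number of sites by the signed distance in bp from the centre of the site to the centre of its best core motif (at most 1 mismatch, 913 sites, the span of 500 bp to either side shown). Scores pile up just above the threshold of 50 and thin out to a single site at 472, and the motif distances form a narrow peak about 0 with a median absolute distance of 41 bp.

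The score of a region is the authors' MACS score, which is −10 log10 of the p-value of its read enrichment, so it rises with depth as well as with enrichment. Scores of the intronic sites ran from 50.0 to 472 with a median of 77.6 (interquartile range 61.2 to 108). The medians were 80.3 in introns of longer genes, 84.6 in extragenic sites 2 to 20 kb from a TSS and 76.6 in promoters. A score of at least 100 was reached by 351 sites, 29.8% (27.3 to 32.5), against 34.2% (31.9 to 36.6) in longer genes and 37.8% (35.8 to 39.9) in the nearer extragenic class. High-scoring sites were therefore less frequent here than in the nearer extragenic class by more than counting error. The regions were narrow, with a median width of 824 bp (722 to 933), and covered 1031 kb in all.

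The share of sites with the core did not move with the score. In 4 groups of like size, from the lowest scores to the highest, it was 77.3%, 77.9%, 76.5% and 78.6%, and the 4 intervals overlapped throughout. Sites with and without the core had median scores of 77.6 and 77.7. The weakest 3 sites, in Gm12873 (score 50.0), Apaf1 (50.0) and Prhoxnb (50.0), show both cases, since the Apaf1 and Prhoxnb sites held an exact core and the closest match in Gm12873 had 3 mismatches.

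The 20 strongest sites lay in genes of many kinds. Alg14, a subunit of the enzyme that adds the second sugar to the N-glycan precursor, held the top site (score 472) in its intron 2, and Eaf2, a partner of the ELL elongation factors, the next (443), also in intron 2. They were followed by the noncoding Gm16271 (377), Ikbkg (361), which encodes the regulatory subunit of the NF-kappaB kinase, Shc4 (347), a Shc adaptor, 4933407H18Rik (329), AI481877 (318) and the lincRNA A430010J10Rik (313). The site in Th, the rate-limiting enzyme of catecholamine synthesis, scored 311 and lay 11160 bp from the nearest exon. Its intron spans 33491 bp in the longest transcript, and the transcript with most exons has no intron there. Rnf213, a large ubiquitin ligase, reached 299 and Txnrd2, the mitochondrial thioredoxin reductase, 297. The remaining 9 were Ptprh, a receptor phosphatase (286), Piwil4, of the piRNA pathway (270), the opsin gene Opn5 (266), the noncoding Gm16090 (265), the protease inhibitor gene Serpinb6a (256), the potassium channel gene Kcnk9 (253), Exoc1, of the exocyst (253), Rhobtb3 (249) and Slc38a9, a lysosomal amino acid transporter (248). Among these 20 sites the core with at most 1 mismatch was absent in Eaf2, A430010J10Rik, Th and Ptprh, where the closest match had 2, 2, 2 and 3 mismatches. As in Th, the transcript with most exons has no intron at the Ikbkg, Piwil4 and Serpinb6a sites.

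The 5 widest sites ranged widely in score. The widest, 4745 bp in Rxrg, which encodes a retinoid X receptor, scored 101 and held 3 equally good cores with 1 mismatch, the nearest 959 bp from its centre. Those in Mreg (2670 bp), 4930555I21Rik (2638 bp) and Mtf2 (2587 bp) scored 52.3, 53.8 and 55.0, and that in Amz2 (2531 bp) scored 115. The Mtf2 site lay 9998 bp from a region of the BirA list. It was 1 of 6 intronic sites within 10 kb of such a region, with 1110021L09Rik (gap 2496 bp), Nfat5, Gm10664, Gm11292 and Gm1661, and the part of the BirA signal in these 6 was not tested.

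Intronic bases of shorter genes carried more sites than those of longer genes. Over the 297.9 Mb that met the rule (over 2 kb from a TSS, in no exon, longest gene under 100 kb), there were 3.95 sites per Mb (exact Poisson interval 3.73 to 4.18), against 2.82 (2.68 to 2.96) over 566.3 Mb in longer genes. Extragenic bases 2 to 20 kb from a TSS held more, 5.19 per Mb (4.97 to 5.42), those at 20 to 100 kb fewer, 3.24 (3.10 to 3.39), and those over 100 kb away fewest, 1.14 (1.05 to 1.24). The intervals of promoters (4.21, 3.93 to 4.50) and exons (4.08, 3.56 to 4.66) overlapped that of the intronic class. Bases where reads do not align uniquely count among these Mb, and their share was not measured.

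The supply of core motifs differed between the classes as well. Introns of shorter genes held 7.10 exact cores per Mb, longer genes 4.37, and the extragenic bases at 2 to 20 kb 6.70. Of the 2115 exact cores in introns of shorter genes, 345 lay inside a Wapal site, or 16.3% (14.8 to 17.95). The share was 18.6% (17.2 to 20.2) in longer genes and 23.9% (22.3 to 25.5) in the extragenic bases at 2 to 20 kb. Shorter genes thus had more sites and more exact cores per Mb than longer genes, while the share of cores inside a site was no higher.

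The share of sites that held the core was 77.6% here and 74.0% (72.9 to 74.98) in all other sites together, a difference of 3.60 points (Newcombe interval 0.932 to 6.11). Against introns of longer genes (75.3%) the difference was 2.30 points (−0.909 to 5.46), and against extragenic sites at 2 to 20 kb (75.7%) 1.82 points (−1.22 to 4.77). Both of these intervals include 0, as do those against exons (1.66 points, −4.07 to 8.14) and extragenic sites at 20 to 100 kb (2.48 points, −0.651 to 5.53). Promoter sites held it in 65.2%, 12.4 points lower (8.38 to 16.4), and extragenic sites over 100 kb from a TSS in 71.9%, 5.71 points lower (1.28 to 10.3).

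**Figure D2:**
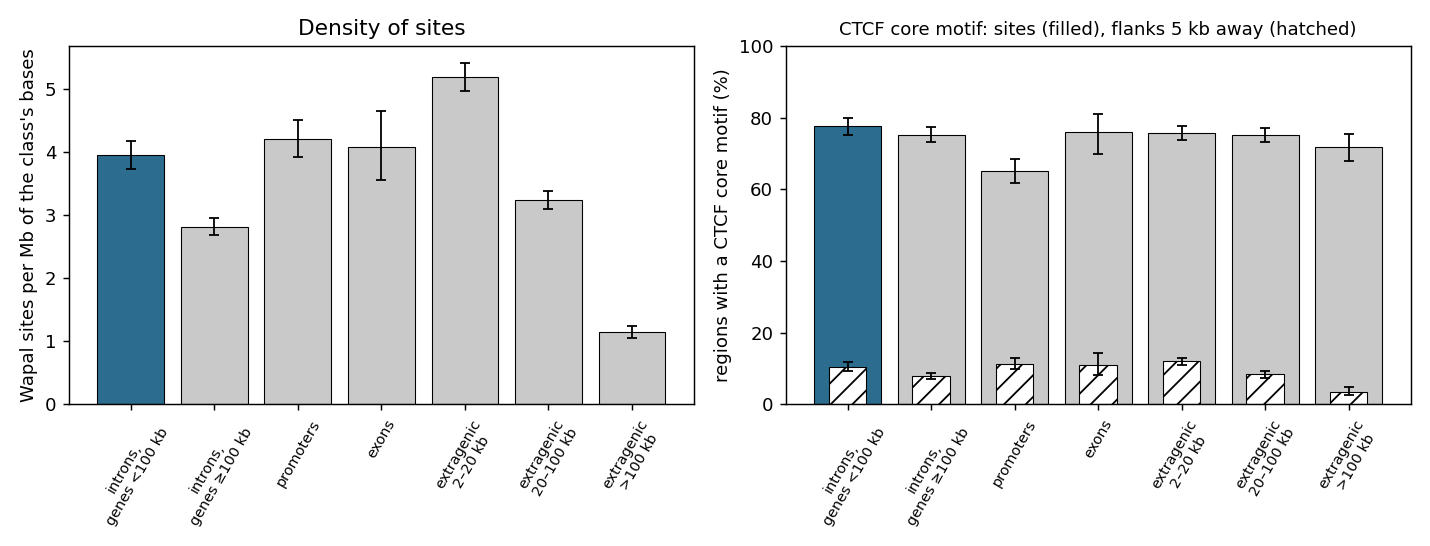
Left, Wapal sites per Mb of the bases of each class with exact Poisson 95% intervals; right, percent of sites (filled bars) and of flanking regions 5 kb away (hatched bars) that hold the CTCF core with at most 1 mismatch, with Wilson 95% intervals. The intronic sites of genes under 100 kb, in blue, stand at 3.95 per Mb between introns of longer genes (2.82) and nearby extragenic bases (5.19), and at 77.6% with the core against 10.4% of their flanks.

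Sites grew denser from the start of the host gene to its end. With the gene body cut into 5 equal segments, read in the direction of transcription, the density was 2.86 (2.39 to 3.38), 3.21, 3.93, 4.63 and 5.13 (4.53 to 5.80) sites per Mb. The last segment exceeded the first by a factor of 1.80 (1.46 to 2.21), from 257 and 134 sites. The factor was 1.68 (1.16 to 2.44) among sites with a score of at least 100, 1.64 (1.26 to 2.14) over 5 kb from every TSS, and 1.94 (1.53 to 2.46) among sites with the core. Median scores showed no such order, at 80.3, 76.0, 79.2, 74.3 and 80.4.

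Exact cores followed the same order. Their density in the same bases was 5.01, 6.34, 6.84, 8.06 and 9.19 per Mb from the first to the last segment. The share of them that lay inside a Wapal site was 14.9% (10.9 to 20.0), 16.1%, 16.2%, 16.1% and 17.6% (14.4 to 21.4), with intervals that overlapped in all 5. Cores with 1 mismatch included, which are far more numerous, the density was nearly level at 115, 122, 122, 123 and 123 per Mb, and the share in sites rose from 2.14% (1.79 to 2.56) to 3.87% (3.42 to 4.38). In longer genes the density of sites also rose, from 2.17 (1.91 to 2.46) to 3.86 (3.49 to 4.25) per Mb, and that of exact cores from 3.82 to 5.63 per Mb.

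**Figure D3:**
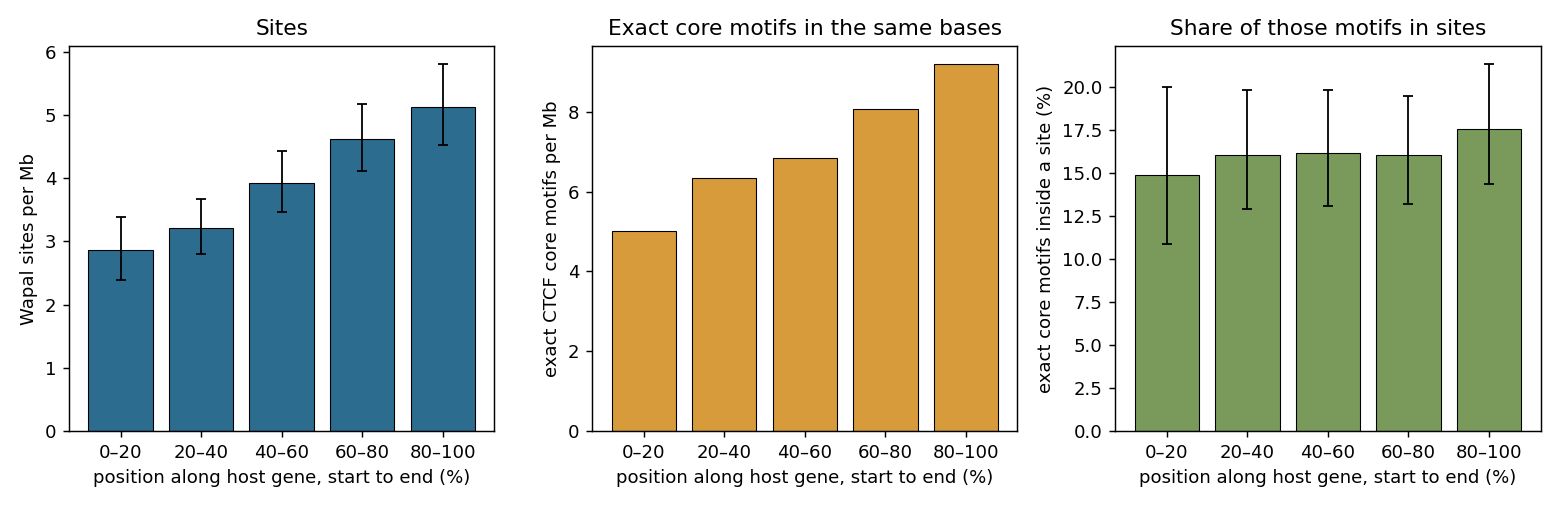
From left to right, against position along the host gene in 5 equal segments from start to end: Wapal sites per Mb with exact Poisson 95% intervals, exact CTCF cores per Mb of the same intronic bases, and percent of those exact cores inside a Wapal site with Wilson 95% intervals. Sites rise from 2.86 to 5.13 per Mb and exact cores from 5.01 to 9.19 per Mb, while the share of cores inside a site stays between 14.9% and 17.6%.

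The first intron was sparser than the later ones. It held 268 of the sites, 22.8% (20.5 to 25.3), but 28.5% of the eligible bases, a density of 3.16 per Mb (2.79 to 3.56) against 4.24 (3.97 to 4.53) in later introns, by the longest transcript of each host. Among sites with a score of at least 100 the share was 25.1%, nearer to that of the bases. By the transcript with most exons it was 21.0%, for which the bases were not counted. Another 132 sites (11.2%) lay in the last of several introns, which held 11.9% of the bases, and 14 lay in no intron of the longest transcript. Among those 14 is the Piwil4 site of score 270.

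Density also varied with distance from the nearest exon, without a steady order. It was 3.89 per Mb within 500 bp of an exon, 4.77 (4.18 to 5.43) at 1 to 2 kb and 3.08 (2.66 to 3.54) beyond 5 kb. A base of the region itself reached into an exon in 243 sites (20.6%). The median distance to the nearest TSS was 10652 bp, and for 902 sites (76.6%) that TSS was not the host gene's annotated 5′ end.

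The strand of the motif was read against that of the host gene. The motif lay on the host's strand in 433 of 913 sites, 47.4% (44.2 to 50.7), and on the opposite strand in 480. Outside the sites, cores with at most 1 mismatch lay on the host's strand in 52.9% (52.4 to 53.4) of 35079 cases, above the interval of the sites. These cases come from the eligible introns of all genes under 100 kb, with or without a site. Exact cores were 1770 of those 35079 but 345 of the 1065 cores inside sites. Among exact cores the share was 49.5% (47.2 to 51.8) outside and 47.25% (42.0 to 52.5) inside, with overlapping intervals. In sites of the first intron the motif lay on the host's strand in 80 of 203, 39.4% (32.9 to 46.3), and in later introns in 346 of 698, 49.6% (45.9 to 53.3). The difference of −10.2 points (−17.6 to −2.37) is 1 of several splits of these sites, and by segment of the gene the share ran 50.0%, 47.9%, 50.5%, 45.1% and 45.4% with overlapping intervals.

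The 1177 sites lay in 1097 host genes, of which 1022 held 1 site, 70 held 2 and 5 held 3. The hosts were protein-coding for 1071 sites (91.0%), noncoding processed transcripts for 61, lincRNAs for 42 and pseudogenes for 3. In 23 sites the centre lay in several genes, and in 12 of them a gene on the other strand was among these. Of the 19951 protein-coding genes under 100 kb, 1000 hosted a site, or 5.01%. That share followed gene length closely, at 0.214% (19 of 8856) under 10 kb, 2.64% at 10 to 20 kb, 7.86% at 20 to 50 kb and 20.4% (18.9 to 22.1) at 50 to 100 kb. Per Mb of eligible intron the same 4 length bins held 3.22 (2.20 to 4.55), 4.05, 3.93 and 3.99 (3.67 to 4.34) sites, so density did not rise with length among these hosts.

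**Figure D4:**
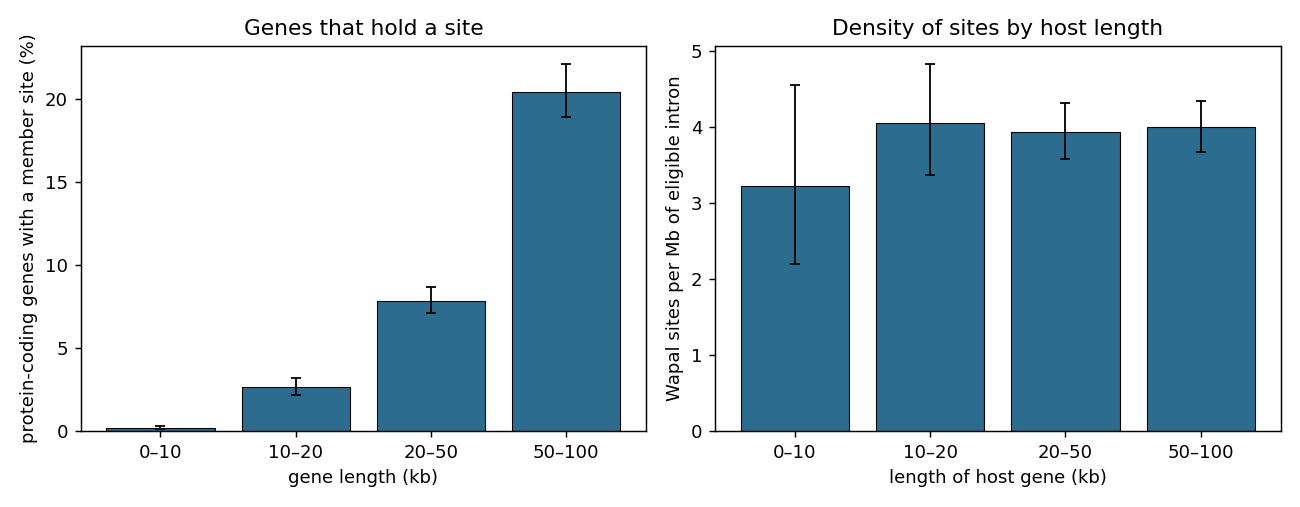
Left, percent of protein-coding genes of each length that host an intronic site, with Wilson 95% intervals; right, sites per Mb of eligible intron by length of the host gene, with exact Poisson 95% intervals. The share of genes climbs from 0.214% to 20.4% with length, whereas the density stays between 3.22 and 4.05 per Mb with overlapping intervals.

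The limits of the class did not mark a step in the sites. The 200 sites in hosts of 80 to 100 kb had a median score of 78.3 and held the core in 77.5%, and the 166 sites just outside, in genes of 100 to 120 kb, had 77.8 and 78.9%. The 49 sites at 2 to 2.5 kb from a TSS had a median score of 84.0 and held the core in 75.5%. Just outside that limit, 69 sites at 1.5 to 2 kb in genes under 100 kb had 79.6 and 78.3%.

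By chromosome, the density was highest on chromosome 1 at 5.18 per Mb (4.24 to 6.26, 107 sites) and lowest on the X at 2.10 per Mb (1.38 to 3.05, 27 sites). Of the 20 strongest sites, 1 lay on the X, that of Ikbkg.

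Genes with several sites allow the direction of neighbouring motifs to be read. Distances between sites are taken from centre to centre, here and below. In Piwil4 a site of score 99.3 lay 1203 bp from the site of score 270 already shown, with the cores pointing toward each other. In Serpinb6a sites of score 114 and 256 lay 38384 bp apart, also facing each other. In Gnas, which encodes the stimulatory G-protein subunit and lies in an imprinted locus, sites of score 80.04 and 75.8 lay 1194 bp apart. Their closest matches were on the same strand, but that of the former had 2 mismatches. Since 51.9% of flanks also held a match at that setting, no direction is read for the Gnas pair. The gap between the regions themselves was at most 500 bp in Piwil4 and in Gnas. Joining regions with such gaps would put each of these pairs in 1 region, and whether either is a single site called in parts was not tested. The windows of the Piwil4, Serpinb6a and Gnas sites, chosen after the values were seen, are given to show the strands, with the site at the lower coordinate first.
Piwil4, chr9:14502462-14502503, plus strand: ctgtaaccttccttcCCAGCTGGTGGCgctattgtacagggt
Serpinb6a, chr13:34048844-34048885, plus strand: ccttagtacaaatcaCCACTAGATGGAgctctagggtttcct
Serpinb6a, chr13:34087252-34087293, minus strand: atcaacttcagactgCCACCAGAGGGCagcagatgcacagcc
Gnas, chr2:174136537-174136578, plus strand: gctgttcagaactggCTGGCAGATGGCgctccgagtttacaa
Gnas, chr2:174137796-174137837, plus strand: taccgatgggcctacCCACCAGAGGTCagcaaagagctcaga

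Across all hosts there were 80 adjacent pairs of sites in a shared gene, 40 of them with the core in both sites. The spacing of those 40 had a median of 11806 bp (1203 to 54899 bp). Of them, 18 were divergent (45%, 30.7 to 60.2), 17 tandem (42.5%) and 5 convergent (12.5%, 5.46 to 26.1). The convergent pairs were those of Serpinb6a, Piwil4, Abl2, Fam126b and Iqgap1. Among all adjacent sites up to 60 kb apart of which neither was an intronic site of a shorter gene, 98 of 886 pairs were convergent (11.1%, 9.16 to 13.3) and 359 divergent (40.5%, 37.3 to 43.8), which lies within the intervals of the intronic pairs. Those 886 pairs, unlike the 40, were not restricted to a shared gene. Under that same limit, 7 of 70 pairs were convergent (10%, 4.93 to 19.2) where both were intronic sites of shorter genes. Where only 1 was, 35 of 203 were convergent (17.2%, 12.7 to 23.0).

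Of the 5 genes with 3 sites, Sctr, the secretin receptor gene, had scores of 87.2, 76.4 and 136, and the closest pair lay 3072 bp apart in its first intron. Diap1, which encodes a formin that nucleates actin filaments, held 3 sites in a single intron with scores of 91.1, 71.9 and 112. In 4831426I19Rik the scores were 84.6, 64.2 and 111. The apoptosome gene Apaf1 had 3 weak sites of score 63.1, 50.0 and 51.4, and Aatf, an antagonist of apoptosis, had 52.4, 55.1 and 51.8. An exact core was present in 2 of the 3 Apaf1 sites and in none of the 3 Aatf sites.

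The gene lists used here hold the regulators most often discussed for cohesin and ESCs, and their counts are read against the 5.01% of all protein-coding genes under 100 kb. That share is not matched for length, and it was 0.214% under 10 kb but 7.86% at 20 to 50 kb. Pluripotency factors apart, the lists whose counts are given had median lengths from 22238 bp (Wnt) to 44640 bp (cohesin and its regulators) among genes under 100 kb. Among Polycomb genes, 3 of 26 under 100 kb hosted a site. These were Cbx7 (score 124), the chromodomain subunit of PRC1 abundant in ESCs, Pcgf5 (113), of a variant PRC1, and Mtf2 (55.0), an accessory subunit of PRC2. The intron at the Cbx7 site spans 40239 bp in the longest transcript, and the transcript with most exons has no intron there. Of imprinted genes, 3 of 22 held 4 sites, with Ddc, which makes dopamine from L-DOPA, at 131, the pair in Gnas, and Sgce, a sarcoglycan gene, at 58.0.

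In the signalling pathways, hosts on the Notch list included Hey2 (81.2), a repressor induced by Notch, and Maml2 (76.0), a coactivator of the Notch intracellular domain. The TGF-beta, Nodal and BMP list had 3 of 26, comprising the receptors Acvr2a (110) and Bmpr1a (53.2) and the transducer Smad5 (74.2). On the Fgf, Ras and MAPK list, the ligand gene Fgf2 held a site of score 107.5 where a second gene overlaps. The intron spans 92025 bp in the longest Fgf2 transcript, and the transcript with most exons has no intron there. The Wnt list had 0 of 23.

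Among genes of DNA methylation and histone modification, Tet2 (71.6), a 5-methylcytosine oxidase, hosted a site, and its 2482 bp region had no match closer than 3 mismatches. DNA repair had 1 of 28, Nbn (66.3), of the MRN complex. General transcription and Mediator had 1 of 26, Taf4a (199), a TFIID subunit and the strongest site of all the lists. Cohesin and its regulators had 0 of 10 and pluripotency factors 0 of 22, the latter with a median length of 8196 bp, a range in which few genes host a site. The Wilson interval of each list whose count is given included 5.01%, and also the 7.86% of genes of 20 to 50 kb.

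The windows of 3 listed genes that hold the core, at scores of 124, 107.5 and 81.2, were chosen after the values were seen.
Cbx7, chr15:79776612-79776653, plus strand: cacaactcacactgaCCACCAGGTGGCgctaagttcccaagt
Fgf2, chr3:37240208-37240249, plus strand: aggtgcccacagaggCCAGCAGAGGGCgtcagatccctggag
Hey2, chr10:30558165-30558206, plus strand: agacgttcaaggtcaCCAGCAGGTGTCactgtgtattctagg
The first 2 are exact matches and the Hey2 window carries 1 mismatch. The centre of the Cbx7 core lay at −342.5 bp from the centre of its 1511 bp region. Other listed sites lacked the core, namely those in Mtf2, Nbn, Sgce and Tet2 and 1 of the Gnas pair.

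Motifs of 3 other factors were not more frequent in the sites than beside them by more than counting error. The octamer ATGCAAAT bound by Oct4 and its relatives was found on either strand in 4.08% (3.09 to 5.37) of the sites and in 4.42% of the flanks. The Esrrb motif TCAAGGTCA was found in 2.29% (1.58 to 3.32) and 2.36%, and the YY1 motif AANATGGC in 17.7% (15.6 to 20.0) and 16.5%. In the 264 sites without the CTCF core the 3 shares were 6.06% (3.77 to 9.62), 3.03% and 19.3%, with intervals that include the share in the flanks.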

How the data were processed

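The 2 lists are the authors' own. Per the paper's methods and the submitters' notes, reads were aligned to mm9 with Bowtie, keeping unique alignments, and regions were called with MACS 1.4.2 at its default p of 1e-05 against input. The deposited values are a score per region (−10 log10 p); the lists hold no read counts, and the depth behind each region was not analysed here. How the regions of both clones were joined is not given in the sources used here. Input and single-clone lists were not analysed here.

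Regions sharing at least 1 bp with a BirA region were removed, and centres were placed on GENCODE M1 gene models of NCBIM37 (mm9), with introns from each host's longest transcript. The CTCF core (12 bases, both strands, at most 1 mismatch; best match, ties to the centre) was searched in sites and in flanks of equal width 5 kb away, dropping flanks that touch a Wapal region or exceed 10% N. Densities use bases meeting the class rule. Intervals are 95% Wilson, Newcombe or exact Poisson, and the interval of the ratio of densities uses the normal approximation on its log. Python 3.11.15, numpy 2.4.6, scipy 1.17.1 and matplotlib 3.10.9 were used, and the search was tested on simulated data.

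Members and gene lists were chosen with earlier results of these data known. Named sites are the 20 strongest, those of the 5 hosts with most sites, hosts on the gene lists (at most 4 a list) and the 5 widest, with others named after their values were seen. Some listed genes, and the counts of their 3 lists, are not reported here.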

Additional observations from a re-analysis of the deposited data

How the results depend on the processing

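Of 30 alternative values, 21 stayed within the interval of the value reported or, for the count of sites, within 1.5 times it. The number of sites was 1195 without removal of BirA regions, 1173 with regions joined across gaps of at most 500 bp, and 1101 with protein-coding genes only. It moved to 351 with a score of at least 100, 605 with hosts under 50 kb and 1788 with hosts under 200 kb, as the rule's own limits set. The share with the CTCF core was 28.6% for exact matches, 96.9% with up to 2 mismatches and 60.5% in the central 200 bp, where less sequence was searched. With a score of at least 100 the density was 1.18 per Mb, the share of protein-coding genes under 100 kb with a site 1.55% and the median width 857 bp. The share with the core (77.8%), on the host's strand (46.9%) and in the first intron (25.1%) stayed within their intervals at that score. The 3 alternatives for the rise along the gene were added after seeing the data. A planned split of core motifs by repeat-masked bases was not run, because the reference was not masked. No paired analysis was possible because both clones are joined in 1 list, and for the same reason no library could be left out. Without read counts in the lists, weak sites cannot be told from shallow coverage, and what a score below 50 would add was not analysed here.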
